A study of Mus musculus with 8 samples.

Results

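The PIWI and Tudor domain genes of the germ line were examined for H2A.Z, a variant of histone H2A that is usually found at the starts of genes. The set comprised 10 genes (Piwil1, Piwil2, Piwil4, Tdrd1, Tdrd5, Tdrd6, Tdrd7, Tdrd9, Tdrd12 and Tdrkh) chosen by name from the 21900 protein-coding genes of the RefSeq table for GRCm38.p6, whose coordinates are those of mm10, and all 10 were found there. For each gene, every peak within 1 kb of either gene end (a gene-end peak) or elsewhere in the gene (a gene-body peak) was taken. This gave 11 of the 31156 Znhit1-CKO peaks, 14 of the 48752 control peaks, and 9 of the 24367 regions that the authors listed as differing between the genotypes.

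The data were chromatin immunoprecipitations with an anti-H2A.Z antibody from dissociated testis cells of mice at postnatal day 14, with 2 libraries for each of 4 groups: H2A.Z precipitates and inputs from Znhit1-CKO testes, and H2A.Z precipitates and inputs from control testes. Znhit1 encodes a subunit of the SRCAP complex, which exchanges H2A for H2A.Z, and the series asks how its loss alters H2A.Z occupancy. The allele is conditional. Its Cre driver, the cells in which it acts and whether animals were pooled are not given in the labels, whose protocol calls the same animals Znhit1-sKO. The cells were not sorted, so a change in the share of a cell type and a change of H2A.Z within cells cannot be told apart, and a peak list, which measures no expression, cannot check the labelled cell type. The authors deposited 1 peak list named for each genotype, with positions only. Each is filed with a single library, and whether it comes from that library alone or from both replicates is not given, so a lost or kept call may rest on 1 library per genotype. A gene therefore has a peak width or no peak in each genotype, no value per library and no replicate error, and no difference below was tested against the spread between animals. The protocol names over 30000000 reads per library, and the depth of each library is unknown.

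PIWI proteins are the germ line branch of the Argonaute family. They carry piRNAs, small RNAs that guide the silencing of transposons in fetal and neonatal germ cells and, in a later wave, accumulate in pachytene spermatocytes. Tudor domain proteins bind methylated arginines in the tails of PIWI proteins and assemble them with helicases and nucleases in cytoplasmic granules, the intermitochondrial cement and the chromatoid body.

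All 10 genes had a control peak at an end or in the body, against 74.9% of protein-coding genes, and 8 had one at a gene end, against 67.6%. Of these 8, 4 had no Znhit1-CKO peak at either end: Piwil1, Piwil4, Tdrd9 and Tdrd12 (called lost below). The other 4, Tdrd1, Tdrd5, Tdrd7 and Tdrkh, kept a peak. Among all 14815 protein-coding genes with a control gene-end peak, 11.5% had lost it. Summed over the 10 genes, gene-end peaks covered 3513 bp in Znhit1-CKO testes and 6838 bp in control testes, which is 51.4% of the control length. The same sum over all protein-coding genes was 73.9%, and the whole Znhit1-CKO list had 58.0% of the length of the control list.

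The authors' differential regions lay at an end of 6 of the 8 genes, which is close to the 62.8% of all genes with a control gene-end peak. Counting the gene body as well, 9 of the 10 genes had a region, all but Tdrkh, against 71.5% of genes with a control peak there. Each of the 9 genes had 1 region, every one lay on a control peak, and 4 lay on a Znhit1-CKO peak too. The authors' list gives no direction for a region. All 4 genes that lost the gene-end peak had a region at that end, against 58.6% of all genes that lost theirs.

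**Figure D1:**
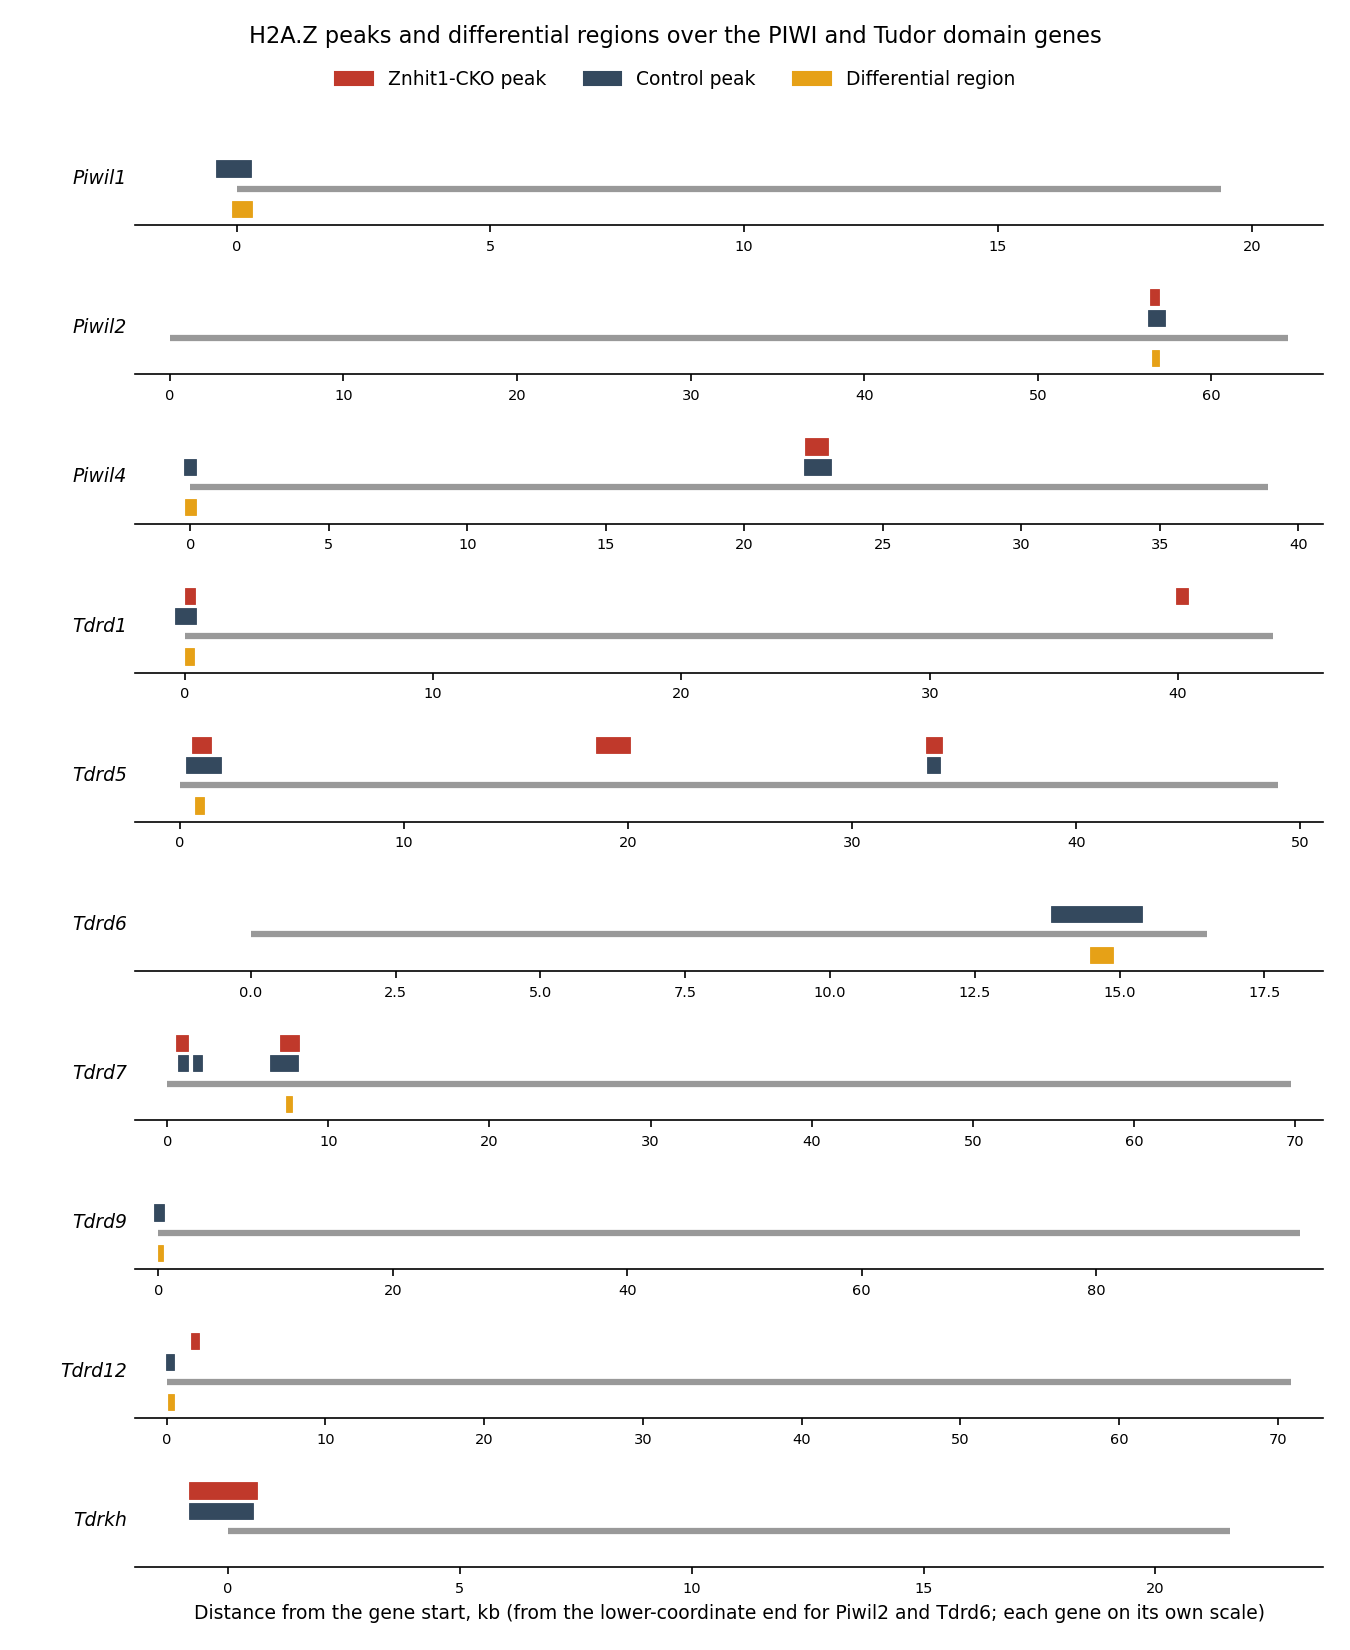
Position of every Znhit1-CKO peak (red), control peak (dark blue) and differential region (yellow) along each of the 10 genes (grey line), in kb from the gene start, or from the end with the lower coordinate for Piwil2 and Tdrd6, each gene on its own scale. Piwil1, Tdrd6 and Tdrd9 have a control peak and no Znhit1-CKO peak, and the red boxes in Tdrd1, Tdrd5 and Tdrd12 without a blue box under them are 464, 1507 and 505 bp wide.

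The PIWI genes themselves differed. Piwil1 (MIWI), whose protein carries the pachytene piRNAs of spermatocytes and round spermatids, lies on chromosome 5 (128736071 to 128755474). It had no Znhit1-CKO peak, and a control peak of 706 bp that ran from 585 bp before to 120 bp after the RefSeq start. A differential region covered that start, from 262 bp before to 137 bp after it. No other peak of either genotype lay in the gene.

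Piwil4 (MIWI2) encodes the nuclear PIWI protein that directs DNA methylation of transposons in fetal prospermatogonia, and lies on chromosome 9 (14701776 to 14740672). At its outer start the gene had no Znhit1-CKO peak, against a narrow control peak of 449 bp, and a differential region covered the start. A further peak lay in the gene body, 833 bp wide in Znhit1-CKO testes and 970 bp in control testes, with no differential region. It sat on a second RefSeq start of Piwil4, and also 237 bp (Znhit1-CKO peak) and 207 bp (control peak) from an end of the long non-coding RNA gene Gm10706, so the peak cannot be assigned to one of the genes. The 2 sites of Piwil4 thus differed: the peak was absent from the Znhit1-CKO list at the outer start and present in both lists at the internal one.

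Piwil2 (MILI), whose protein acts in both the transposon and the pachytene pathway, lies on chromosome 14 (70372477 to 70436898) and had no peak at either end. Its single peak lay 7080 bp inside the end with the higher coordinate and was 509 bp wide in Znhit1-CKO testes and 996 bp in control testes. The Znhit1-CKO peak lay wholly within the control peak and covered 51.1% of it. A differential region lay there too, with 91.75% of its length within the Znhit1-CKO peak. The gene table takes in predicted transcripts, so an outermost end need not be the start in use, and the promoter table holds no entry for Piwil2 or Tdrd6. The control peak also lay 226 bp from the small nuclear RNA gene Gm24890.

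Promoters from RefSeq (GRCm38.p6), which run from 250 bases before to 50 after a start, are shown for the 4 genes that lost the gene-end peak and for 2 that kept it, because these are the stretches on which the peak was or was not called. They are in lower case, 5′ to 3′ along the gene. Capitals mark 4 motifs searched on both strands: TAACNG (the core of the MYB site), TCCCGC (the core of the E2F6 site), CACGTG (an E-box) and TGACGTCA (the cAMP response element), none of whose matches in these genes overlapped a match of another motif. Where a gene has several starts, the promoter with most bases in a control peak is given. At Tdrd1 and Tdrd7, 2 promoters tied with all 300 bases in a control peak, and the more upstream was used.
Piwil1 (lost), chr5:128735996-128736295, plus strand: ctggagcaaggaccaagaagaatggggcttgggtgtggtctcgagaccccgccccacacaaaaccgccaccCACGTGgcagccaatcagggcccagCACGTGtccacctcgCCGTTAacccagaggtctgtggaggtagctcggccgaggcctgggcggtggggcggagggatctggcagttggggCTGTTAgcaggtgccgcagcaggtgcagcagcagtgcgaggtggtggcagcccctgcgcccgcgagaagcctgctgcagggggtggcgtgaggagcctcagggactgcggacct
Piwil4 (lost), chr9:14740623-14740922, minus strand: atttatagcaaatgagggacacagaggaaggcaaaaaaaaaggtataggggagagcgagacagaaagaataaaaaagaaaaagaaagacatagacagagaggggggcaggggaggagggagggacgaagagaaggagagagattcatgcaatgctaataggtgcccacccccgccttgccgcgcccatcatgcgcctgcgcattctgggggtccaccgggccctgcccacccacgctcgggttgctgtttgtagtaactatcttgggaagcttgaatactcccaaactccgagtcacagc
Tdrd9 (lost), chr12:111971309-111971608, plus strand: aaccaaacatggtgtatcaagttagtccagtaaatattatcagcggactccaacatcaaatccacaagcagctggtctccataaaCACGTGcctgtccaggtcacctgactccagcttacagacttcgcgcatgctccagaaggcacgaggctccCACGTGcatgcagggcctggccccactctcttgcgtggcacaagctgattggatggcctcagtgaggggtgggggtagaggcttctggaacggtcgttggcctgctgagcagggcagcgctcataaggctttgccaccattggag
Tdrd12 (lost), chr7:35537666-35537965, minus strand: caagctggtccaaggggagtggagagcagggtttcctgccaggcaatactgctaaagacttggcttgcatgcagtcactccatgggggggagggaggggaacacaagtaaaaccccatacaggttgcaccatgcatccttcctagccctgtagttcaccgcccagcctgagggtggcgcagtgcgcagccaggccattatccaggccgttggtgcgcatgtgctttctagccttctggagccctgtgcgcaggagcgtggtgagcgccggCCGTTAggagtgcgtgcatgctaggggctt
Tdrd1 (kept, narrower), chr19:56825959-56826258, plus strand: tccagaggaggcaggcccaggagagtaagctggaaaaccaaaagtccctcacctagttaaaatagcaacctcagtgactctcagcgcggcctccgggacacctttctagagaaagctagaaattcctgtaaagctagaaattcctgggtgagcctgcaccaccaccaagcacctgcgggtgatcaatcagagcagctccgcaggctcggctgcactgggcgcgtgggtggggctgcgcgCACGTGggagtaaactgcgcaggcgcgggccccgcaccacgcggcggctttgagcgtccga
Tdrkh (kept), chr3:94412994-94413293, plus strand: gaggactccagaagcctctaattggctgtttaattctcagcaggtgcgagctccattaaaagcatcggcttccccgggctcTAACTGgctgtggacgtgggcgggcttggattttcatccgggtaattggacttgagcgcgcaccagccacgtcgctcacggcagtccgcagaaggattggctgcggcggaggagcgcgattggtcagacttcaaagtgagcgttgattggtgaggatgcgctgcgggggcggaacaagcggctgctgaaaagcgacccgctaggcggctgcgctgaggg

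Of the 8 genes with a promoter entry, 3 held an E-box (Piwil1, Tdrd1 and Tdrd9), against 7.9% of the 21006 promoters of protein-coding genes. The Piwil1 and Tdrd9 promoters held 2 each. The MYB core was in 4 (Piwil1, Tdrd5, Tdrd12 and Tdrkh), against 21.1%, with 2 matches in Piwil1 at 139 and 64 bases before the start. The E2F6 core was in 1, Tdrd5, against 26.0%, and the cAMP response element in none, against 2.25%. Each motif found in more than 1 of these promoters was in both lost and kept genes. The sets are unlike: the 21006 promoters belong to 17250 genes and were taken with or without a peak. Those of the 8 genes were picked, 1 per gene, by their bases in a control peak. A match is a description of the letters and not a sign of binding.

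By the promoter with most bases in a control peak, CpG content was lower at all 4 lost genes than at the 4 kept. With so few genes this is a description only. Observed over expected CpG was 0.408 in Tdrd12, 0.430 in Tdrd9, 0.535 in Piwil1 and 0.543 in Piwil4, the promoters under lost peaks. Under peaks called in both genotypes it was 0.733 in Tdrd1, 0.956 in Tdrkh, and 1.11 in both Tdrd5 and Tdrd7, in Tdrd7 at an internal start. The promoters that tied with those used for Tdrd1 and Tdrd7 had 0.81 and 0.863. Observed over expected CpG was lower than in any of the lost promoters, at 0, at the internal start of Piwil4, under a peak called in both genotypes. That peak also lay near an end of Gm10706. The promoter at the outer start of Tdrd7 had 0.234 and lay beside the kept gene-end peak, but within no peak of either genotype. The median of all promoters was 0.574. Over the 11376 protein-coding genes with a control peak on a promoter, that peak overlapped no Znhit1-CKO peak in 21.0% of the genes poorest in CpG (the lowest of 4 equal groups, up to 0.592) and in 2.25% of the richest (the highest group, from 0.910). The median width of the control peak was 1201.5 bp in the poorest group and 1580 bp in the richest, so CpG content and peak width moved together, and their parts in the loss over these genes were not tested.

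Among the Tudor genes, Tdrd9 and Tdrd12 lost the gene-end peak. Tdrd9 joins a Tudor domain to an RNA helicase and is a partner of MIWI2. It lies on chromosome 12 (111971488 to 112068854) and had no Znhit1-CKO peak, against a control peak of 801 bp from 428 bp before to 372 bp after the start, with a differential region over the start. Further out, 2 Znhit1-CKO peaks of 632 and 278 bp lay on a control peak of 1249 bp, which was 3799 bp from the gene, so H2A.Z was called in Znhit1-CKO testes outside the gene and not at its start.

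Tdrd12, required for the loading of MIWI2 with piRNAs, lies on chromosome 7 (35466941 to 35537784). At its start it had no Znhit1-CKO peak and a narrow control peak of 479 bp, from 118 bp before to 360 bp after the start, with a differential region. A Znhit1-CKO peak of 505 bp with no control peak under it lay in the gene body, from 1438 to 1942 bp after the start. It had no differential region. Loss at the start of Tdrd12 therefore went with a called peak nearby, which a window of 2 kb counts as a gene-end peak.

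Tdrd6, which encodes a scaffold of the chromatoid body in spermatids, had the widest control peak of the 10 genes with no Znhit1-CKO peak over it. On chromosome 17 (43615334 to 43631846) the gene had no Znhit1-CKO peak, against a control peak of 1582 bp with a differential region within it. That peak ended 1117 bp inside the end with the higher coordinate, just outside the 1 kb window, and so is not among the 4 lost gene-end peaks. Of all control peaks at or in protein-coding genes that were at least as wide, 2.61% overlapped no Znhit1-CKO peak. The Tdrd6 peak was picked as the widest without an overlap, and its own width set this cutoff. The only wider control peak of the 10 genes, 1727 bp at Tdrd7, was called again.

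The Tudor genes that kept a peak fell into those with a narrower peak and those with one of similar or greater width. Tdrd1, a partner of MILI in the intermitochondrial cement, had a start peak of 421 bp in Znhit1-CKO testes and 863 bp in control testes (chromosome 19, gene 56826171 to 56870012). The Znhit1-CKO peak began 40 bp before the first RefSeq start, against 430 bp in control testes, and ended 52 bp short of the control peak downstream. The missing stretch was therefore mostly the upstream side. A differential region ran from 41 bp before to 358 bp after that first start. Of this region, 99.75% lay within the Znhit1-CKO peak, and so not in the missing upstream stretch.

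Tdrd5, a chromatoid body protein needed for transposon silencing and for spermiogenesis, lies on chromosome 1 (156255296 to 156304304). Its start peak was 848 bp wide in Znhit1-CKO testes and 1550 bp in control testes, shorter by 265 bp upstream and 437 bp downstream. A differential region lay wholly within the Znhit1-CKO peak there. A peak in the gene body was 714 bp wide in Znhit1-CKO testes and 583 bp in control testes, with no differential region. The same gene held a Znhit1-CKO peak of 1507 bp with no control peak under it, 17625 to 19131 bp after the start (chromosome 1, 156284217 to 156285723). Only 2 of the 5568 Znhit1-CKO peaks without a control peak were wider, and their median width was 345 bp. The Tdrd5 peak is the widest of 3 such peaks in the 10 genes, and its own width set this cutoff. For those in Tdrd1 (464 bp) and Tdrd12 (505 bp), 25.4% and 19.7% were wider. No differential region lay on the Tdrd5 peak of 1507 bp.

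Tdrd7, which acts in chromatoid body assembly and is also known for its role in the lens, lies on chromosome 4 (45965027 to 46034766). Near the outermost of its 3 RefSeq starts it had a narrow peak of 772 bp in Znhit1-CKO testes and 602 bp in control testes, with no differential region. Its widest peak covered the 2 internal starts and was 1150 bp wide in Znhit1-CKO testes and 1727 bp in control testes. The 597 bp that were missing lay upstream. A differential region lay wholly within the Znhit1-CKO peak there, and so outside the missing stretch. A control peak of 542 bp between the outer and the widest peak had neither a Znhit1-CKO peak nor a region over it. The kept call for Tdrd7 thus rests on the narrow outer peak, while its CpG-rich internal start carried the narrowed one.

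Tdrkh (Tdrd2), a mitochondrial protein at which PIWI proteins have their piRNAs trimmed, was the gene without a differential region. Its start peak was 1472 bp wide in Znhit1-CKO testes and 1388 bp in control testes (chromosome 3, gene 94413243 to 94434854). The Znhit1-CKO peak covered the whole control peak and reached 3 bp further upstream and 81 bp further downstream. Both peaks also covered an end of the long non-coding RNA gene 1700040D17Rik, so the peak is shared by a pair of genes.

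**Figure D2:**
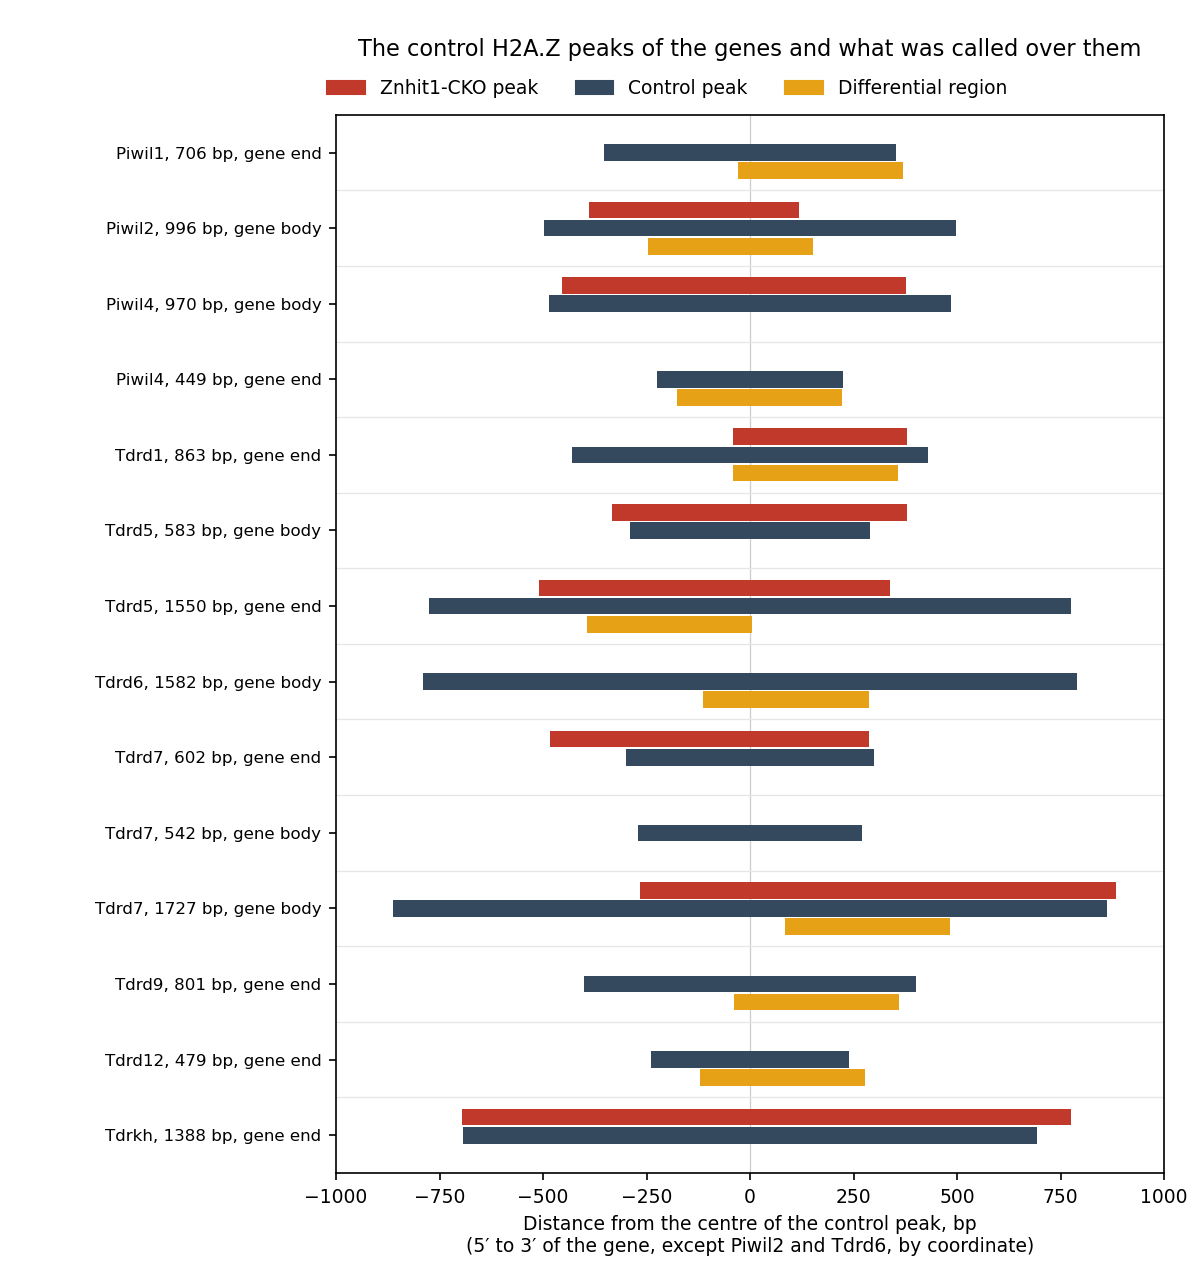
The 14 control peaks of the genes (dark blue), each centred at 0 on an axis in bp, with any Znhit1-CKO peak (red, above) and differential region (yellow, below) that overlaps it. Of the 14, 6 have no red bar, and each of the 4 peaks with both a red and a yellow bar has a red bar shorter than the blue one.

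Peak by peak, 6 of the 14 control peaks overlapped no Znhit1-CKO peak, against 37.2% of the 27323 control peaks at or in protein-coding genes, and 9 of the 14 had a differential region, against 53.7%. Both shares were near the background. The 8 control peaks that were called again each overlapped 1 Znhit1-CKO peak. In 3 of these 8 pairs the Znhit1-CKO peak was the wider, against 19.4% of 15524 such pairs at or in protein-coding genes, and the median log2 ratio of Znhit1-CKO to control width was -0.40, against -0.25.

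Pairs with and without one of the authors' regions are given side by side. The 4 with a differential region were narrower in Znhit1-CKO testes, with log2 width ratios of -1.04 at Tdrd1, -0.97 at Piwil2, -0.87 at the Tdrd5 start and -0.59 at the internal start of Tdrd7. The 4 without one had ratios of -0.22 at the internal site of Piwil4, 0.085 at Tdrkh, 0.29 in the body of Tdrd5 and 0.36 at the outer peak of Tdrd7. The 4 regions lay mostly on the stretches still called in Znhit1-CKO testes and not on the missing ones. The share within the Znhit1-CKO peak was 99.75% at Tdrd1, 91.75% at Piwil2, and 100% at both Tdrd5 and Tdrd7. With so few pairs the split is a description only. Over all such pairs at or in protein-coding genes, Znhit1-CKO peaks were narrower than control peaks in 86.4% of 8353 with a region and in 73.6% of 7171 without one, with median log2 ratios of -0.28 and -0.20. Width is where a peak passed the caller's threshold and is not a measure of height.

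Control peaks at the ends of these genes were narrow beside those of all genes, and over all genes narrow gene-end peaks were lost more often. The part of width in the losses of these genes was not tested. The widest gene-end peak had a median of 753.5 bp over the 8 genes and 1429 bp over all genes with one. It was 714 bp for all genes that lost it and 1487 bp for all that kept it. The lost peaks of Piwil1, Piwil4 and Tdrd12 fell in the narrowest of 10 width groups of genes, where 60.1% lost the peak, as did the kept peak of Tdrd7. Tdrd9 (lost) and Tdrd1 (kept) fell in the next group, where 26.5% did, and Tdrkh and Tdrd5 in groups with 3.3% and 1.35%. Added up over the 8 genes, the shares of their width groups come to 2.98 genes, beside the 4 observed. Among genes whose widest control gene-end peak lay between the narrowest and the widest of the 8 (449 to 1550 bp), 14.7% had lost it.

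**Figure D3:**
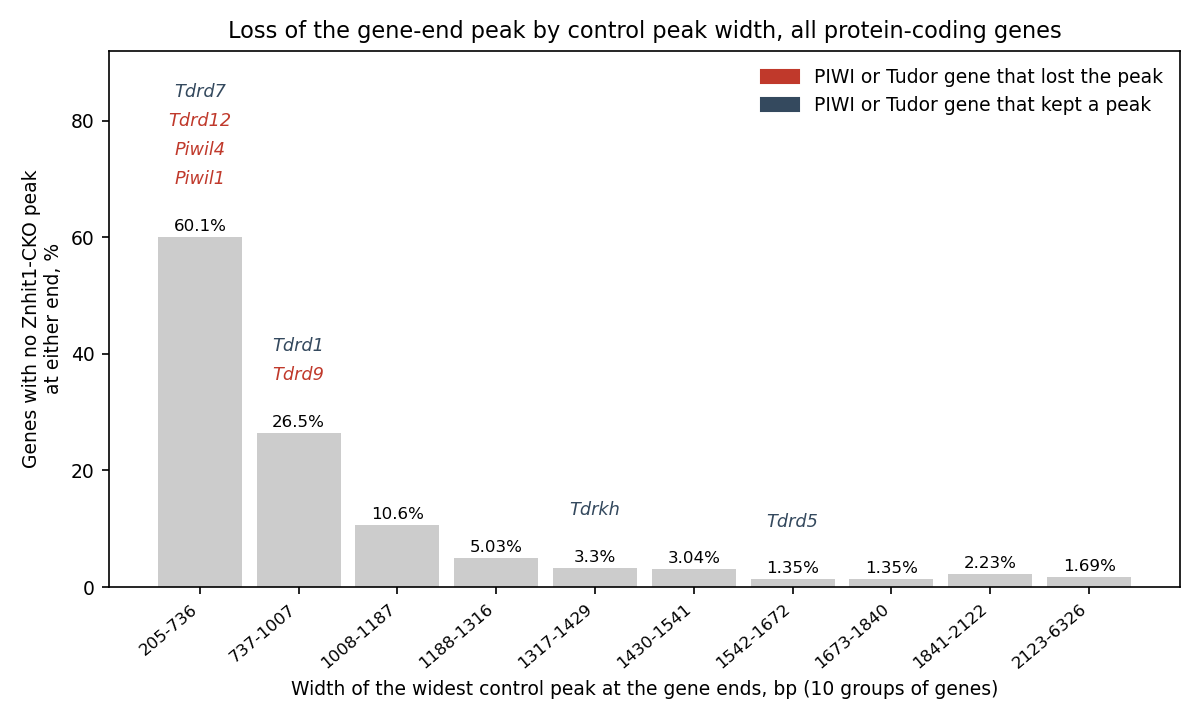
Percentage of protein-coding genes with no Znhit1-CKO peak at either end (bars), by the width in bp of the widest control peak at the gene ends, in 10 groups of about equal size; names mark the groups of the 8 genes, in red where the peak was lost and in dark blue where a peak was kept. Of the 4 lost genes, 3 stand over the narrowest group, in which 60.1% of genes lost the peak.

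Taking the gene as a whole, 3 genes (Piwil1, Tdrd6 and Tdrd9) had control peaks and no Znhit1-CKO peak at an end or in the body, against 10.0% of genes with a control peak there. By any RefSeq start in place of the gene ends, a peak was lost at 3 of the 8 genes with a known start, Piwil1, Tdrd9 and Tdrd12, against 9.68% of genes. Piwil4 left this count through its internal start. Summed over ends and bodies, the peaks of the 10 genes covered 9195 bp in Znhit1-CKO testes and 13238 bp in control testes (69.5%). Of the Znhit1-CKO length, 1507 bp was the peak in Tdrd5 without a control peak. The whole Znhit1-CKO list had 58% of the control length. The sum over ends and bodies of all protein-coding genes is not given here, so the 69.5% has no like background.

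Other genes of the pathway and of both families were compared with these. Of 16 further piRNA factors, 15 had a control gene-end peak and 8 had lost it (53.3%, against 11.5% of all protein-coding genes with one): Asz1, Btbd18, Dnmt3l, Gtsf1, Mael, Morc1, Mov10l1 and Spocd1. Of these 8, 5 had a differential region at an end, against 58.6% of all genes that lost the peak. Morc1, which acts in transposon silencing, had the widest of the lost peaks, 1499 bp with no Znhit1-CKO peak over it and a differential region. Asz1, which encodes a mitochondrial piRNA factor, and Btbd18, which promotes transcription of pachytene piRNA precursors, had control peaks of 983 and 878 bp, none overlapped, both with a region. At Dnmt3l, a cofactor of DNA methylation, the control peak of 898 bp was partly covered by a Znhit1-CKO peak outside the 1 kb window, and there was no region. Gene-end peak length over these 16 genes was 38.8% of control in Znhit1-CKO testes. It was 51.4% for the PIWI and Tudor set and 73.9% over all protein-coding genes.

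Tudor domain genes outside the set, several of them used in all tissues, lost the gene-end peak in 2 of 11 (18.2%). Over all protein-coding genes with a control gene-end peak, 11.5% lost it. Stk31 lost a peak of 1091 bp, on which no Znhit1-CKO peak and 1 region lay. Smn1, the survival of motor neuron gene, was lost only by position, since part of its control peak of 1470 bp was called again in Znhit1-CKO testes. Tdrd3 and Akap1 had the widest kept peaks, 2715 bp in Znhit1-CKO testes against 2667 bp in control testes for Tdrd3, and 2526 bp against 2095 bp for Akap1. None of the 3 AGO genes with a control gene-end peak lost it, beside the same 11.5% of all genes: Ago2 had 1998 bp in Znhit1-CKO testes against 2030 bp in control testes, Ago4 1608 against 1956 bp, and Ago1 1527 against 1668 bp. Control peaks were wider in these families, with medians of 1601 bp for the other Tudor genes and 1956 bp for the AGO genes, against 753.5 bp for the PIWI and Tudor set and 983 bp for the other piRNA factors, and the part of width in the difference between the lists was not tested.

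**Figure D4:**
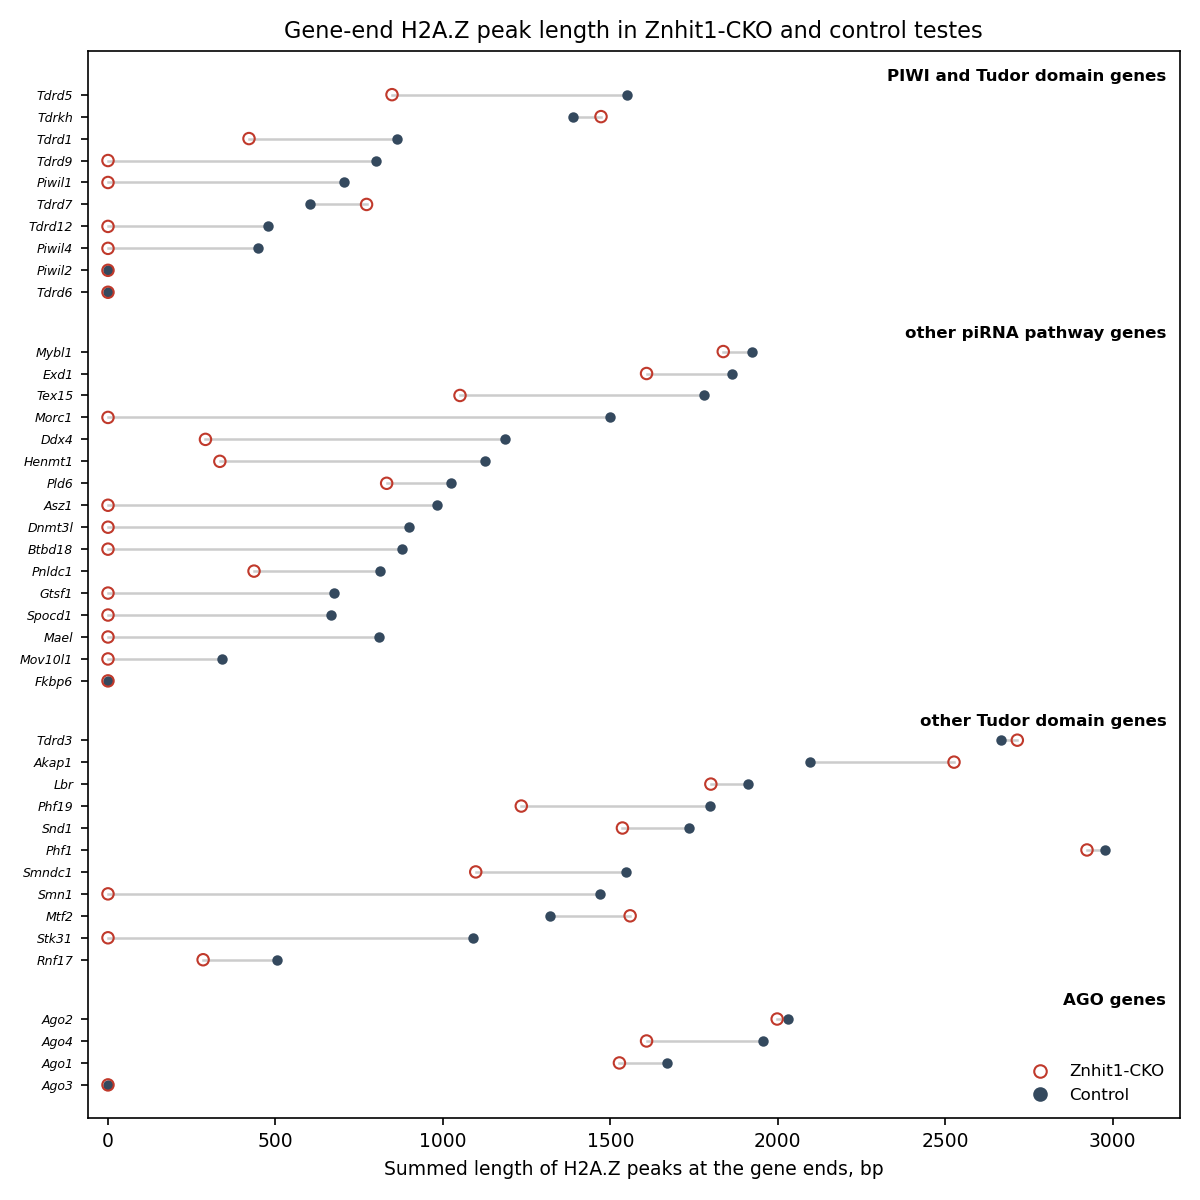
Summed length in bp of the H2A.Z peaks at the ends of each gene in Znhit1-CKO testes (open red circles) and control testes (filled dark blue circles), for the 10 genes and 3 lists of related genes. Open circles at 0 joined to a filled one mark lost genes, 4 in the PIWI and Tudor set, 8 among other piRNA genes, 2 among other Tudor genes and none among AGO genes; genes with no peak in either genotype have both circles at 0.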

How the data were processed

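H2A.Z ChIP-seq of testis cells was read from 3 lists the authors deposited: peaks of Znhit1-CKO testes, peaks of control testes, and differential regions, which the list's own name credits to edgeR. Per the submitters' processing notes, the tools were MACS2 2.2.4, BWA 0.7.17, cutadapt 2.5, Picard 2.20.7 and SAMtools 1.9 and the build was mm10. The deposited values are chromosome, start and end (unit: position, other than a level), and no score, count, fold or direction stands beside them. How replicates were pooled and which thresholds applied is not given in the sources used here. Nearly all regions (24362) are 400 bp long. A peak that falls under a threshold leaves the list whole, so absence is not a measured level.

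Genes, starts and promoters came from RefSeq tables of GRCm38.p6. Intervals overlapped if they shared at least 1 bp, and coordinates count from 1. A gene was lost where it had a control peak and no Znhit1-CKO peak within 1 kb of either end. Each share stands beside that of all protein-coding genes. No test was possible without values per replicate. The genes, lists and alternatives were chosen with earlier results of these data known. All 10 members are named, and up to 4 genes of each other list, lost ones first, by width of the control peak; the further lost piRNA genes were listed after their values were seen. Tdrd15 was not matched. The overlap code was checked on all 48752 control peaks against bedtools 2.31.1 (0 differed) and on simulated data, where 200 of 200 planted losses were recovered. Python 3.11.15, numpy 2.4.6, pandas 2.3.3 and matplotlib 3.10.9 were used.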

Additional observations from a re-analysis of the deposited data

How the results depend on the processing

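The 4 lost genes were Piwil1, Piwil4, Tdrd9 and Tdrd12. They were 5 with a 500 bp window (Tdrd5 added) and 5 where 50% of both peaks had to overlap, and 3 by any RefSeq start, with ends and bodies together, or with peaks of at least 500 bp, which drops Piwil4 and Tdrd12 as too narrow and adds Tdrd1. With a 2000 bp window they were 4, with Tdrd6 in place of Tdrd12. Summed gene-end length (log2 of Znhit1-CKO over control, -0.96) was -1.72 with the 500 bp window, because Tdrd5 and Tdrd7 then lose or have no peak there, and stayed within 1.5 times of the reported value under the other alternatives (-1.16 to -0.53). Gene bodies reversed the log2 length ratio of Tdrd1 (-1.04, then 0.036) and that of Tdrd5 (-0.87, then 0.52), through Znhit1-CKO peaks without a control peak. That of Tdrd7 (0.36) was -0.57 with the 2000 bp window and -0.58 with the gene body. Alternatives by RefSeq start and gene body, and those for single peaks, were added once the values had been seen (chosen after seeing the data). Each list is named for a genotype and may come from 1 library. No paired analysis was possible because replicates have no values of their own, which also kept any 1 of them from being left out. Depth per library is unknown, so a narrow peak that is missing was not detectable at the threshold used, which does not show that H2A.Z was absent.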

Other observations

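Peaks up to 5 kb outside the genes, which the counts above leave out, were called in both genotypes. Around Tdrd1 they were 1100 and 1155 bp wide in Znhit1-CKO testes and 1310 and 1142 bp wide in control testes, and above Tdrd7 one was 948 bp in Znhit1-CKO testes and 983 bp in control testes. Only the peak below Tdrd1, of 1100 bp in Znhit1-CKO testes and 1310 bp in control testes, and that below Tdrd9 had a differential region. Each of these outlying control peaks overlapped a Znhit1-CKO peak. No such peak lay beside the other 7 genes.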
